A study of Cavia porcellus with 10 samples.

Results

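The uterine cervix has to stay closed and firm through most of pregnancy and then soften and open at birth, and the change of its stroma and epithelium on the way is called cervical remodeling. Progesterone, which acts through the nuclear receptor encoded by PGR, holds the cervix and uterus quiescent. In the guinea pig the hormone stays high in the blood up to birth. A stage that lies between estrus and term can pass through states that neither end shows, and the genes described here are those that were highest or lowest at mid-pregnancy. In the 3 mid-pregnant animals (MT), 324 genes peaked and 306 dipped, out of 12645 genes tested and 25028 in the table. The dips held 46 of 57 tested genes of the mitotic spindle and kinetochore, or 80.7% against 2.42% of all genes. The peaks held the receptors for progesterone, relaxin and oxytocin. They also held 13 of 183 tested solute carriers, or 7.1% against 2.56% of all genes. Some of these carriers reached the level needed for testing only in MT.

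RNA was sequenced from 10 Hartley guinea pigs, 1 cervix per animal, with 3 animals in the non-pregnant group (NP), 3 in MT and 4 in late pregnancy before labor (LT). Hartley is an outbred stock, and the labels give no allele or agent in any group. The NP animals were sampled at estrus, so this group stands for 1 point of the cycle. The MT group had a gestation age of 43.6 ± 0.5 days and the LT group of 65.2 ± 1.2 days (SD), as estimated from the fetuses after death. The age of the mothers is not given in the sources used here. The vaginal portion of the cervix was used without separating its cells, so that fewer cells of a type and less RNA per cell cannot be told apart. Between 20047660 and 27351763 reads per NP animal were assigned to genes, between 18730665 and 25380420 in MT and between 25804572 and 27881572 in LT. Transcripts of fibrous and muscular tissue were abundant in every library, with COL1A1, a chain of type I collagen, between 3495 and 7443 TPM (transcripts in 1000000) and MYH11, smooth muscle myosin, between 719 and 1364 TPM. EPCAM of epithelial cells lay between 269 and 418 TPM and the regional gene HOXA13 between 26.7 and 92.6 TPM.

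MT was set against the mean of the NP and LT stages, each stage with the same weight, on log2(TPM + 1). This difference is called the contrast, and its P-value comes from limma with Benjamini-Hochberg adjustment over the 12645 genes whose mean reached 3 TPM in 1 stage or more. A gene can reach this level in MT alone, and such genes are counted in the peaking shares of the lists and of all genes. An adjusted P under 0.05 was reached by 582 genes higher in MT, which is 4.6% of the genes tested, and by 457 genes lower in MT, which is 3.61%. A gene peaks if it is higher by this test and each of the 3 MT animals lies above each of the 7 others. It dips if it is lower by this test and each MT animal lies below each of the 7 others. Peaking genes were 2.56% and dipping genes 2.42% of those tested, and 292 of the 324 and 267 of the 306 have a gene name. Another 258 genes were called higher and 151 called lower although an MT animal overlapped another stage. A further 189 genes lay wholly above and 203 wholly below without passing the test. Of all tested genes, 4.06% lay wholly above and 4.03% wholly below. At the border of the peaking set, the lowest MT value of ST3GAL5 was 21.1 TPM and its highest other value 21.0 TPM, and PAIP2B missed by 20.9 against 21.0 TPM. Values of single animals are given below in the order of the replicate numbers, and the size of a peak or dip is the smaller of its differences from NP and from LT.

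**Figure D1:**
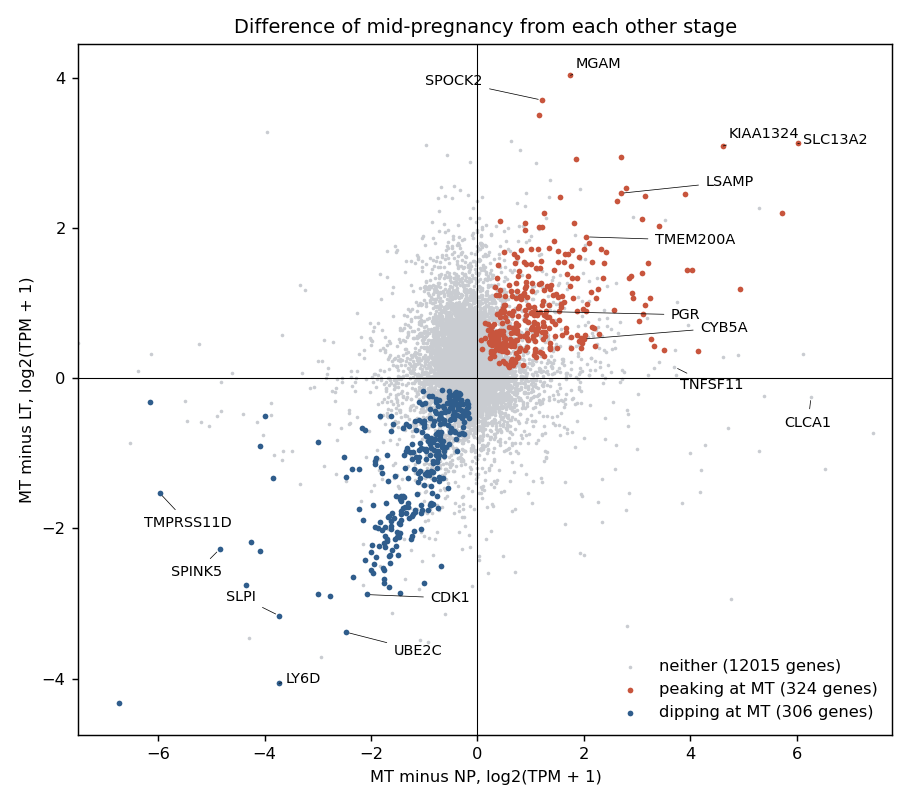
Each point is 1 of the 12645 genes tested, placed by the difference of the MT mean from the NP mean (horizontal axis) and from the LT mean (vertical axis), both on log2(TPM + 1). The 324 peaking genes (red) lie in the upper right and the 306 dipping genes (blue) in the lower left. Many peaking genes lie off the diagonal, and LT was called higher than NP for 102 of them and lower for 53. CLCA1 and TNFSF11 lie far to the right near the height of 0 and belong to neither set.

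The size of a peak had a median of 0.63 and reached 3.12 on the log2 scale, and 76 peaking genes had a size of at least 1. For dips the median was 0.80 and the largest 4.33, and 116 genes had a size of at least 1. Tested one stage at a time, MT differed from NP for 251 of the 324 peaking genes and from LT for 268, and from both for 195. Among the 306 dipping genes these numbers were 254, 261 and 209. Of the peaks named in the text, the difference from NP was not called for SPOCK2, PAPPA2, COL13A1, RPL35A, RPL26, ST3GAL5, SLC10A4 and SLC13A5, and that from LT not for GMNN, CDH7, CDH10, MARVELD2, BCAS1, CPD and SLC35A3. Of the dips, the difference from NP was not called for CA14, ORC1, POLE, SLC16A3, C1QB, PKM, ASNS, MMP19 and PSMB1, and that from LT not for TMPRSS11D, IL1RN, IFIT5, EGR1, FGF18, CMPK2, VCAN and MMP14. Over all genes, MT was higher than NP for 6.27% and lower for 12.2%, and higher than LT for 22.7% and lower for 6.73%. LT and NP did not differ by the test for 169 of the peaking and 217 of the dipping genes, while LT was higher than NP for 102 and 45 and lower for 53 and 44. Over all genes LT was higher than NP for 11.2% and lower for 41.9%. The median over all genes tested was a contrast of 0.03, a difference of -0.14 from NP and of 0.16 from LT. After scaling by the median ratio of the libraries the last 2 values were -0.00305 and -0.0149, 310 of the peaking genes were still called higher and 277 of the dipping genes still called lower, and 243 and 244 of them still peaked or dipped.

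The number of calls rested on few animals. Of the 324 peaking genes, 110 kept an adjusted P under 0.05 in each of the 10 fits that left out 1 animal, and of the 306 dipping genes 130. Without MT2 196 of the peaking and 171 of the dipping genes lost the call, without MT3 191 and 146, and without MT1 103 and 78. Without 1 of LT2, LT3 or LT4 between 66 and 79 of the peaking and between 49 and 78 of the dipping genes lost it, and without NP1 3 of each.

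Steroid receptors are transcription factors that bind their hormone inside the cell. PGR, the progesterone receptor (ENSCPOG00000020113), was at 29.5, 27.8 and 23.5 TPM in NP, at 60.6, 55.7 and 51.8 TPM in MT and at 23.5, 31.3, 30.5 and 35.3 TPM in LT. The MT animals lay close together and above all others, and NP and LT overlapped. The contrast was 0.96 (standard error 0.12, adjusted P = 0.00289). ESR1, the estrogen receptor, was not a member. Its MT values of 136, 163 and 131 TPM lay between the LT range of 76.7 to 104 TPM and the higher NP values of 315 and 289 TPM, with NP1 at 121 TPM, and the contrast was -0.01 (adjusted P = 0.99). The median contrast of the 20 receptors and cofactors tested in this class was 0.14, against 0.03 over all genes. The call of PGR held with each animal left out and in every other setting run.

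Of 20 tested genes known to answer to progesterone in the uterus, 4 were called higher, against 4.6% of all genes, and 2 of these peaked, or 10% against 2.56%. The median contrast was 0.34, and with 1 animal left out 1 or 2 peaked. ZBTB16, a zinc finger repressor that progestins and glucocorticoids induce, was at 15.2, 21.7 and 14.7 TPM in NP, at 31.3, 35.7 and 28.4 TPM in MT and at 16.3, 10.4, 16.6 and 14.4 TPM in LT. Its contrast was 0.98 (standard error 0.16, adjusted P = 0.00762), and no MT animal overlapped another stage. MAOA, the monoamine oxidase A gene, peaked at 70.7 to 79.8 TPM against 39.2 to 56.6 TPM in NP and 49.2 to 64.8 TPM in LT, but lost its call without MT1, MT2 or MT3, after median-ratio scaling and with edgeR on the counts. TNFSF11, the ligand RANKL that progesterone induces in the breast, had a contrast of 1.92 (adjusted P = 0.000938) without peaking. Its MT values of 22.0 to 33.2 TPM overlapped the LT values of 20.2 to 30.6 TPM, far above 0.78 to 1.73 TPM in NP. HAND2, a stromal transcription factor, did not pass, with 24.7, 32.0 and 37.0 TPM in MT and a contrast of 0.22 (adjusted P = 0.61).

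Receptors for peptide hormones on the cell surface were among the peaks. Of 14 hormone and receptor genes tested, 5 were called higher, against 4.6% of all genes, and 3 peaked, or 21.4% against 2.56%. The median contrast was 0.74, and with 1 animal left out between 0 and 4 of them peaked. RXFP1, the receptor of relaxin, a hormone that softens the birth canal, was at 77.4, 75.1 and 85.9 TPM in NP, at 174, 150 and 125 TPM in MT and at 99.4, 72.1, 57.4 and 40.5 TPM in LT. All MT animals were above all others, with a contrast of 1.04 (standard error 0.23, adjusted P = 0.0226). OXTR, the receptor of oxytocin, which makes uterine muscle contract, was of low abundance at 1.74, 3.43 and 1.80 TPM in NP, 5.73, 7.01 and 7.16 TPM in MT and 3.45, 3.26, 4.30 and 3.79 TPM in LT. Its contrast was 0.97 (standard error 0.18, adjusted P = 0.012), on 110 to 189 reads per MT library. EDNRB, the endothelin receptor B, spread widely within MT at 33.7, 56.7 and 90.4 TPM, and even its lowest MT animal was above the highest other value of 29.5 TPM (contrast 1.32, adjusted P = 0.0215). The calls of OXTR and EDNRB ended without MT2 or MT3 and that of RXFP1 without any 1 of the MT animals. The summed level of the marker list of smooth muscle cells ranged from 9326 to 32797 TPM in NP, from 13744 to 20544 TPM in MT and from 20358 to 41509 TPM in LT, with all 10 markers in the table and 9 of their contrasts below 0.

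**Figure D2:**
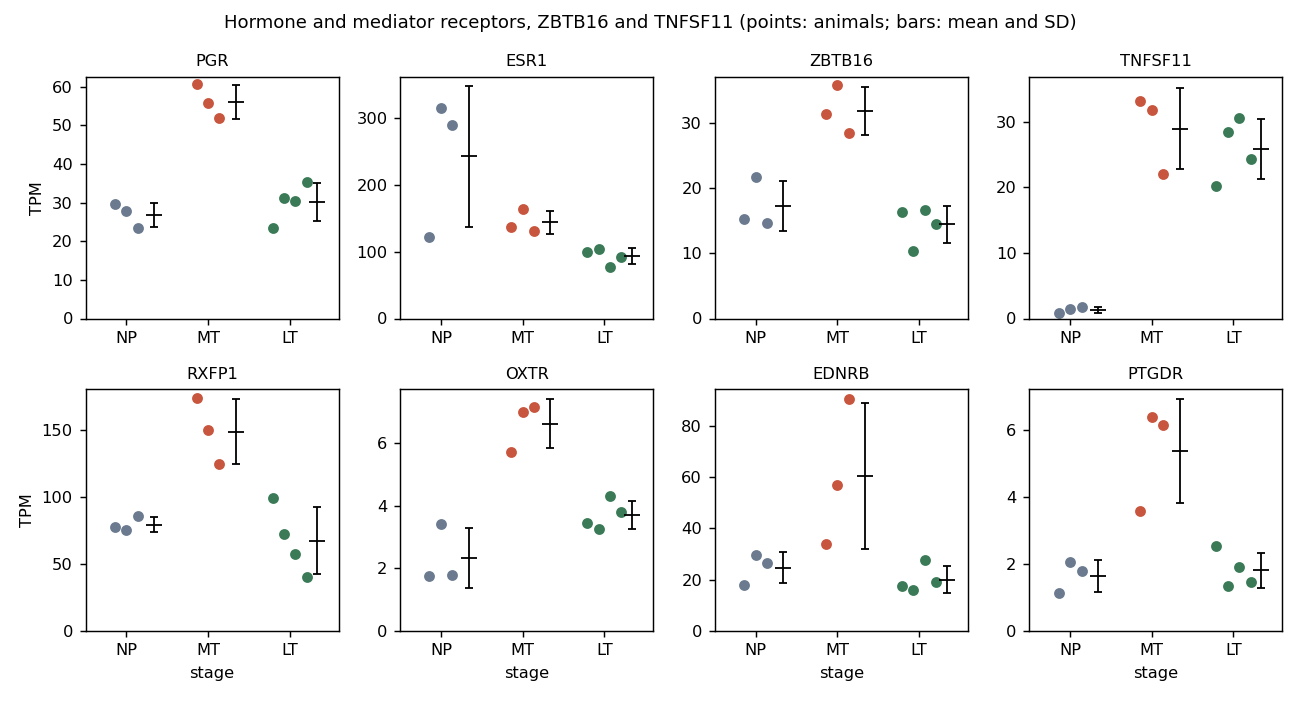
TPM (vertical axes, from 0) of 8 genes in the 10 animals by stage, with the mean and SD beside the points. PGR, ZBTB16, RXFP1, OXTR, EDNRB and PTGDR have each MT animal above all others, whereas TNFSF11 in MT overlaps LT and ESR1 in MT (131 to 163 TPM) lies below NP2 and NP3.

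Prostaglandins, lipid mediators that take part in cervical ripening and labor, had members that moved either way. Of 20 genes of their synthesis, breakdown and reception tested, 5 were called lower and 2 higher, against 3.61% and 4.6% of all genes. Of these 3 dipped and 1 peaked, or 15% and 5% against 2.42% and 2.56%, and the median contrast was -0.15. PLA2G4A, the cytosolic phospholipase that frees arachidonic acid, was at 12.4, 18.2 and 15 TPM in NP, at 8.55, 6.33 and 8.68 TPM in MT and at 15.4, 15, 14.7 and 18.2 TPM in LT. PTGES, which makes prostaglandin E2, was at 3.30, 1.96 and 2.5 TPM in MT, on 15 to 26 reads, against 5.02 to 8.83 TPM in NP and 5.65 to 6.53 TPM in LT. PTGR1, a prostaglandin reductase that inactivates these lipids, was at 11.2 to 16.8 TPM in MT against 36.0 to 38.1 TPM in NP and 19.4 to 24.0 TPM in LT. The contrasts of the 3 genes were -0.90, -1.03 and -0.98, with adjusted P-values of 0.00509, 0.00779 and 0.00232, and the calls held with each animal left out. PTGDR, a receptor of prostaglandin D2, peaked at 3.57, 6.37 and 6.13 TPM against 1.12 to 2.52 TPM elsewhere (contrast 1.21, adjusted P = 0.0111), a call that ended without MT2 or MT3. PLA2G10, a secreted phospholipase of the same list that was picked out after its values were seen, was the other gene called higher (contrast 2.66, adjusted P = 0.0133) and did not peak. Its mean was 0.679 ± 0.0544 TPM (SD) over the NP animals, 201 ± 185 TPM for MT and 395 ± 170 TPM for LT, so that LT had the highest mean, and MT and LT did not differ by the test (adjusted P = 0.124).

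A cell that divides copies its DNA in S phase and then builds a spindle, to which the kinetochores of the chromosomes attach. Genes of the second step held more dips than any other list. Of 57 tested genes of the spindle, kinetochore and cytokinesis, 46 dipped and 47 were called lower, against 2.42% and 3.61% of all genes, and 0 were called higher. All 57 contrasts were below 0, with a median of -1.57. The dips ranged from -2.92 for UBE2C to -0.61. Tested by stage, 45 of the 57 were lower in MT than in NP and 50 lower than in LT, while LT was higher than NP for 9 and not called for the other 48. Leaving out 1 animal at a time, between 38 (without MT2) and 49 of the 57 genes dipped, and the median contrast stayed between -1.83 and -1.42.

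CDK1, the kinase that starts mitosis (ENSCPOG00000005402), was at 16.0, 17.7 and 12.3 TPM in NP, at 4.93, 1.29 and 3.14 TPM in MT and at 30.0, 26.8, 29.8 and 22.6 TPM in LT. MT was lowest and LT highest, with a contrast of -2.48 (standard error 0.25, adjusted P = 0.00116). UBE2C, which feeds the anaphase-promoting complex, fell furthest of the list, with 72.9, 58.5 and 27.5 TPM in NP, 15.5, 3.71 and 8.45 TPM in MT and 109, 83.8, 116 and 69.8 TPM in LT (contrast -2.92, adjusted P = 0.00289). SPC25 and SPC24, which belong with NDC80 to the complex that holds microtubules at the kinetochore, had contrasts of -2.5 and -2.23 (adjusted P = 0.00171 and 0.00289). SPC24 was at 2.13, 1.20 and 3.98 TPM in MT, on 4 to 18 reads, against 6.91 to 10.9 TPM in NP and 13.8 to 30.3 TPM in LT. AURKB and CDCA8, which sit together in the chromosomal passenger complex, had contrasts of -2.28 and -2.14 (adjusted P = 0.00321 and 0.00312). The motor KIF11, which pushes the spindle poles apart, was at 6.82, 1.49 and 3.21 TPM in MT against 12 to 19 TPM in NP and 15.4 to 21.7 TPM in LT. FOXM1, a transcription factor that drives mitotic genes, was at 9.39, 12.3 and 6.44 TPM in NP, at 3.06, 0.791 and 2.64 TPM in MT and at 20.4, 16.2, 17.7 and 12.7 TPM in LT (contrast -2.16, adjusted P = 0.00283). MKI67, a marker of cycling cells, dipped to 5.15, 1.06 and 2.71 TPM from 7.64 to 17.1 TPM in NP and 10.5 to 16.4 TPM in LT (contrast -1.95, standard error 0.33, adjusted P = 0.00762). Each of these calls held with each animal left out. Within MT the animals differed in the same order for most of the list: MT1 was the highest of the 3 for 44 of the 57 genes and MT2 the lowest for 48. The summed level of 8 squamous markers, at 1286, 170 and 420 TPM in MT1, MT2 and MT3, had the same order, and its part in the mitosis dips was not tested.

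The median log2(TPM + 1) over the 57 genes was 3.38, 3.70 and 3.05 in the NP animals, 2.28, 1.32 and 2.00 in MT and 4.04, 3.84, 3.89 and 3.32 in LT, so that the stages did not overlap for MT. Few members of the list stayed out of the dip. ESPL1, which cuts the cohesin ring, was at 5.45, 3.15 and 3.60 TPM in MT and did not pass (contrast -0.56, adjusted P = 0.0953). BUB3, a spindle checkpoint gene, lay wholly below the other stages at 61.1, 66.4 and 64.6 TPM against 67.1 to 89.8 TPM, with a contrast of -0.26 (adjusted P = 0.0996). CENPI lay between 18.1 and 23 TPM in the 10 animals, with a contrast of -0.04 (adjusted P = 0.789).

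DNA replication genes moved less. Of 37 tested genes of replication licensing and of the fork, 13 were called lower, against 3.61% of all genes. Of the 37, 9 dipped, or 24.3% against 2.42%, and 1 peaked, or 2.7% against 2.56%. Contrasts were below 0 for 35, with a median of -0.60. The dips included POLE2 and POLE, subunits of the leading-strand polymerase, ORC1 of the origin recognition complex, and DBF4, which activates the kinase that fires origins. POLE2 was at 6.10, 8.29 and 6.85 TPM in NP, at 3.37, 1.71 and 3.10 TPM in MT and at 13.5, 11.2, 7.93 and 7.21 TPM in LT (contrast -1.34, adjusted P = 0.00657), a call that held with each animal left out, whereas DBF4 lost its call without MT2 or MT3, POLE without any 1 of 3 animals and ORC1 without any 1 of 6. The rings of the replicative helicase did not pass the test. MCM2 was at 5.91, 4.26 and 10.4 TPM in MT and MCM7 at 22.1, 22.0 and 28.0 TPM, with contrasts of -1.23 and -0.65 (adjusted P = 0.0782 and 0.162). PCNA, the sliding clamp, was at 65.7, 71.7 and 88.6 TPM in MT against 70.6 to 104 TPM in NP and 108 to 169 TPM in LT (contrast -0.52, adjusted P = 0.0892). The median of this list per animal overlapped between stages, at 3.19, 3.97 and 3.98 in NP, 3.03, 3.02 and 3.61 in MT and 4.4, 4.18, 3.90 and 3.76 in LT. The difference in response between the mitosis and the replication list was not tested. The number of dips in the replication list fell to 1 without MT2 and rose to 19 when another animal was left out.

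GMNN, the one cell cycle gene that peaked, encodes geminin, which binds CDT1 and so blocks the loading of the helicase. It was at 5.99, 22.8 and 15.7 TPM in NP, at 83.5, 92.0 and 142 TPM in MT and at 71.5, 51.4, 32.3 and 20.2 TPM in LT. The lowest MT animal was above the highest LT animal, and the contrast was 2.13 (standard error 0.43, adjusted P = 0.0169). The difference from NP was 2.89 (adjusted P = 0.00534) and that from LT 1.36 (adjusted P = 0.0548), and the call ended without MT2 or MT3. CDT1 itself was at 2.30, 3.49 and 7.17 TPM in MT, with an adjusted P of 0.306. In the broader list of S and G2/M phase genes of the Seurat package, 34 of 74 tested genes dipped and GMNN alone peaked. These are 45.9% and 1.35%, against 2.42% and 2.56% of all genes, and the median contrast was -0.77. The 3 cell cycle lists together held 133 of the 12645 tested genes and 68 of the 306 dipping genes, which is 22.2% of the dips, and 10 of the 15 named genes with the largest dips.

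**Figure D3:**
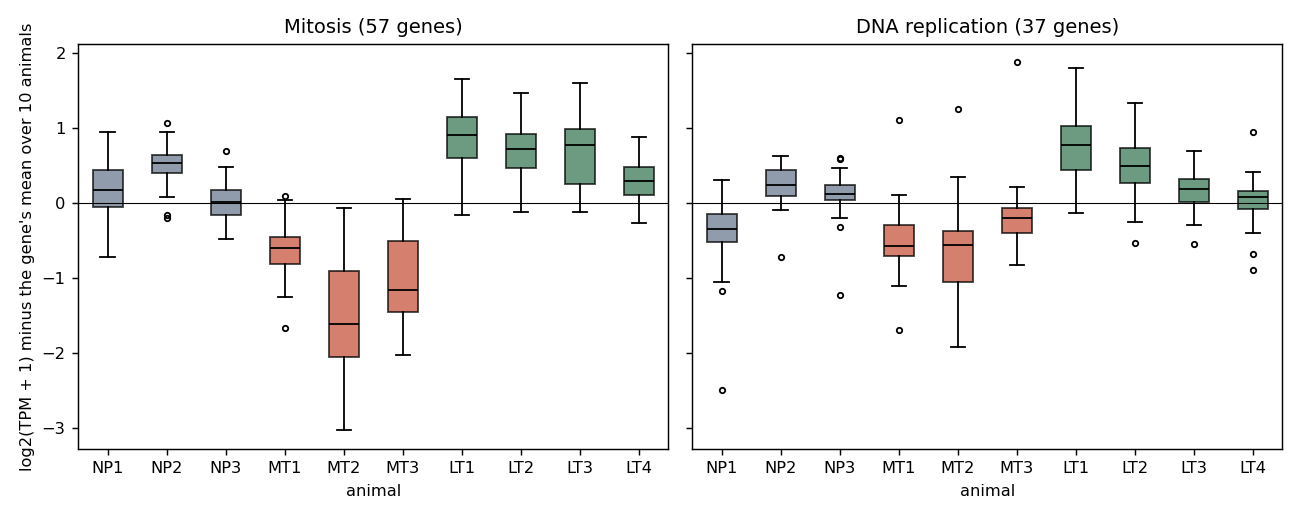
Boxes show, for each animal (horizontal axis), log2(TPM + 1) minus the mean of that gene over the 10 animals, for 57 genes of mitosis (left) and 37 of DNA replication (right). Boxes span the genes from the lower to the upper quartile, lines mark the median, whiskers end at the last value within 1.5 box heights, and circles lie beyond. The mitosis medians of MT1, MT2 and MT3 are the lowest of all animals, while in the replication panel NP1 and the MT animals overlap, and the highest circle of each MT animal is GMNN.

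LY6D, SLPI, SPINK5 and TMPRSS11B, which surface epithelia make, were among the 15 named genes with the largest dips. LY6D, a surface protein of keratinocytes, was at 121, 28.0 and 60.5 TPM in NP, at 23, 0.625 and 1.38 TPM in MT and at 42.5, 103, 54.9 and 127 TPM in LT (contrast -3.89, standard error 0.78, adjusted P = 0.0162). SLPI, a secreted inhibitor of neutrophil elastase, was at 458, 140 and 302 TPM in NP, at 31.1, 25.8 and 8.80 TPM in MT and at 255, 176, 281 and 84.7 TPM in LT (contrast -3.44, adjusted P = 0.00395). SPINK5, a protease inhibitor of stratified epithelia, was at 126, 29.1 and 22.2 TPM in NP, at 1.78, 0.176 and 0.144 TPM in MT and at 4.69, 7.87, 4.49 and 10.6 TPM in LT (contrast -3.56, adjusted P = 0.00415). Unlike LY6D and SLPI, SPINK5 was also lower in LT than in NP (adjusted P = 0.0043). The surface proteases TMPRSS11B and TMPRSS11D were also lowest in MT, with 0.0519 to 0.944 TPM and 0.0355 to 1.32 TPM in MT, on as few as 1 read. TMPRSS11D was at 293, 69 and 28.9 TPM in NP but only at 1.74 to 7.13 TPM in LT, and its difference from LT was not called (adjusted P = 0.12). AQP3, a water and glycerol channel, dipped to 180, 39.4 and 59.3 TPM from 186 to 521 TPM in NP and 213 to 384 TPM in LT (contrast -1.91, adjusted P = 0.0342). LY6D and TMPRSS11B lost the call without MT2 or MT3, and AQP3 without either of these or LT2, LT3 or LT4. On the square root scale SPINK5, TMPRSS11B, TMPRSS11D and AQP3 were not called, and with edgeR on the counts LY6D and AQP3 were not.

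Squamous markers were also lower in MT by their contrasts, and their part in these dips was not tested. Of 15 squamous markers 8 are in the table and were tested. All 8 had a contrast below 0, with a median of -1.61, and 1 of them, TMPRSS11D, dipped. Their summed level was 3635, 1130 and 1055 TPM in NP, 1286, 170 and 420 TPM in MT and 1516, 2380, 2644 and 3015 TPM in LT. NP1 stood apart in NP and MT1 in MT. In this sum MT1 was above NP2 and NP3, whereas it was below them for each of the dips above. Without NP1 the median contrast of the squamous markers was -1.15, and SPINK5, LY6D, SLPI, TMPRSS11B and TMPRSS11D kept an adjusted P under 0.05. The 2 largest dips of all were genes without a name. The means of ENSCPOG00000009710 in NP, MT and LT were 388, 1.29 and 49.8 TPM, and those of ENSCPOG00000008260 were 1836, 3.47 and 68.4 TPM, with SDs of 473, 1.96 and 52.1 TPM and of 2140, 5.22 and 62 TPM.

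All 27 tested genes of the interferon response had a contrast below 0, with a median of -0.63. Of these 4 dipped, or 14.8% against 2.42% of all genes, and 5 were called lower, against 3.61%. The number of dips in this list was 0 without MT3, 1 without MT1 or MT2, 2 without any 1 of the LT animals, and 7 without NP1 or NP3. It was 2 on the square root scale, without a filter and with edgeR, and 9 with DESeq2. The median difference of the list was -0.99 from NP and -0.24 from LT, and the median difference of LT from NP was -1.01, with summed levels of 1072 to 3108 TPM for NP, 616 to 695 TPM for MT and 693 to 905 TPM for LT. BST2, tetherin, was at 517, 265 and 179 TPM in NP, at 64.9, 111 and 75.4 TPM in MT and at 212, 200, 200 and 143 TPM in LT (contrast -1.50, adjusted P = 0.0141), a call lost without MT1 or MT3. PSMB9, a subunit of the immunoproteasome, was at 51.1, 56.4 and 50.8 TPM in NP, at 33.1, 29.4 and 28.2 TPM in MT and at 49.6, 38.6, 48.4 and 33.9 TPM in LT (contrast -0.63, adjusted P = 0.0146), lost without MT2 or MT3. IFIT5 and CMPK2 dipped with contrasts of -1.77 and -1.03, but each lost its call when any 1 of at least 7 animals was left out, on the square root scale and with edgeR. DEFB1, an antimicrobial peptide of epithelia, was at 536, 433 and 433 TPM in NP, at 253, 214 and 190 TPM in MT and at 288, 354, 344 and 298 TPM in LT (contrast -0.82, adjusted P = 0.00347). IL1RN, which blocks the interleukin 1 receptor, fell from 20.1 to 134 TPM in NP to 1.59 to 3.11 TPM in MT, with 4.4 to 12.2 TPM in LT (contrast -2.58, adjusted P = 0.0146), a call lost without MT2 or MT3 and on the square root scale. RGS1, a brake on chemokine signals in leukocytes, was at 48.4, 81.4 and 98.7 TPM in NP, at 4.97, 10 and 18.2 TPM in MT and at 38.5, 74.5, 63.5 and 222 TPM in LT (contrast -2.84, adjusted P = 0.0101, lost on the square root scale). C1QB, a part of the first complement component made by macrophages, was at 91.7, 89.5 and 75.0 TPM in NP, at 54.7, 64.0 and 54.3 TPM in MT and at 195, 125, 199 and 136 TPM in LT (contrast -1.01, adjusted P = 0.00528).

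Macrophage markers were also lowest in MT, but with another shape than the interferon list. The median difference of LT from NP was 0.25 for these markers and -1.01 for the interferon list. Of 11 markers 7 were tested, all 7 contrasts were below 0 with a median of -0.78, and C1QB alone dipped. Their summed level ran from 168 to 193 TPM in MT, below the NP range of 214 to 326 TPM and the LT range of 284 to 512 TPM. The 4 tested markers of T and NK cells had a median contrast of 0.48, and the summed level of the 8 in the table was 12.5 to 28.5 TPM in MT, within the NP range of 6.41 to 41.8 TPM. The part of either cell type in the dips was not tested. Of the 31 interleukins, chemokines and receptors tested, 2 peaked and 1 dipped, or 6.45% and 3.23% against 2.56% and 2.42% of all genes, with 22 contrasts below 0 and a median of -0.13. With 1 animal left out between 0 and 3 of them peaked and between 0 and 2 dipped. LIFR, the receptor of leukemia inhibitory factor, was at 20.1, 30.6 and 32.3 TPM in MT against 13.3 to 18.1 TPM in NP and 10.4 to 14.5 TPM in LT (contrast 0.95, adjusted P = 0.00829), and IL6R at 27.7 to 36.2 TPM against 9.85 to 21.5 TPM elsewhere (contrast 0.86, adjusted P = 0.0223). Without MT2 or MT3 both lost the call, and IL6R also without MT1.

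Transporters of the solute carrier class, which carry small molecules across membranes, held 13 peaking and 2 dipping genes out of 183 tested, or 7.1% and 1.09% against 2.56% and 2.42% of all genes. Among the peaks SLC26A7, SLC10A4 and SLC13A5 reached a stage mean of 3 TPM in MT only, so that MT itself brought them into the test. The median contrast of the class was 0.05. SLC13A2, which takes up citrate and other dicarboxylates with sodium (ENSCPOG00000009792), was the largest peak of all. It was at 0.0245, 0.768 and 0.387 TPM in NP, at 78.4, 95.9 and 89.0 TPM in MT and at 41.5, 19.7, 3.32 and 1.80 TPM in LT, with a contrast of 4.57 (standard error 0.72, adjusted P = 0.00582). The NP value of 0.0245 TPM rests on 1 read. SLC36A2, a proton-coupled carrier of glycine, proline and alanine, was at 26.5, 27.7 and 33.2 TPM in MT against 0.546 to 1.41 TPM in NP and 1.99 to 10.7 TPM in LT (contrast 3.18, adjusted P = 0.00184). SLC5A6, the sodium-dependent carrier of biotin and pantothenate, was at 119, 191 and 131 TPM in MT and between 33.3 and 74.5 TPM elsewhere (contrast 1.56, adjusted P = 0.00509). SLC26A7, an anion exchanger, was at 4.89, 8.95 and 7.08 TPM in MT and at 2.03 TPM or less in the 7 other animals (contrast 1.86, adjusted P = 0.00351). The other 9 peaking carriers included SLC6A6 for taurine at 108, 136 and 86.8 TPM, SLC7A2 for arginine and lysine at 29.9, 31.3 and 41.1 TPM and SLC46A1 for folate at 36.7, 43.3 and 43.6 TPM in MT. Of the 13 peaks 8 kept the call with each animal left out. SLC10A4, SLC13A5, SLC35A3, SLC12A4 and SLC35A1 did not, and without MT2 or MT3 8 carriers peaked. The dips were the lactate carriers SLC16A1 and SLC16A3, described next.

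Glycolysis genes had contrasts mostly below 0, in 16 of 19 tested, with a median of -0.38, and 3 dipped, or 15.8% against 2.42% of all genes. The median difference of the list was -0.18 from NP, beside -0.14 over all genes, and -0.84 from LT, while LT lay above NP by a median of 0.44. SLC16A1 was at 52.3, 28.9 and 21.8 TPM in NP, at 12.1, 12.4 and 15.5 TPM in MT and at 20.9, 25.4, 28.0 and 36.9 TPM in LT (contrast -1.10, adjusted P = 0.0256). SLC16A3 was at 3.41 to 3.76 TPM in MT and 5.0 to 8.47 TPM in NP, and rose to 13.2 to 48.8 TPM in LT (contrast -1.60, adjusted P = 0.0159). PKM, pyruvate kinase, was at 347, 232 and 314 TPM in MT, just below the lowest NP value of 354 TPM (contrast -0.67, adjusted P = 0.0453). All 3 calls ended without MT2 or MT3, that of SLC16A1 also without MT1, and that of PKM without any 1 of 9 animals, after median-ratio scaling and with edgeR. None of the 3 was called on the square root scale. The numbers of dips in this list ranged from 0 to 5 with 1 animal left out. PNP, which breaks down purine nucleosides, was at 258, 220 and 245 TPM in NP, at 102, 124 and 122 TPM in MT and at 209, 177, 162 and 155 TPM in LT (contrast -0.82, adjusted P = 0.00289). TXNIP, which binds thioredoxin and curbs glucose uptake, peaked at 613, 1081 and 833 TPM against 256 to 374 TPM in NP and 282 to 445 TPM in LT (contrast 1.28, adjusted P = 0.00502). The calls of PNP and TXNIP held with each animal left out. CATA_CAVPO, catalase, peaked at 519 to 746 TPM over 268 to 491 TPM elsewhere (contrast 0.73, adjusted P = 0.0146), lost without MT2 or MT3.

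LSAMP, NRCAM and PCDH20, adhesion molecules known from nerve tissue, were among the 15 named genes with the largest peaks, and they are described together after their values were seen. LSAMP, a membrane-anchored protein of the immunoglobulin family, was at 0.602, 0.960 and 1.53 TPM in NP, at 9.33, 15.6 and 11.5 TPM in MT and at 1.64, 1.44, 1.48 and 0.873 TPM in LT (contrast 2.58, standard error 0.21, adjusted P = 0.000431). NRCAM, of the L1 family, was at 16.3, 14.1 and 16.5 TPM in MT against 0.389 to 1.82 TPM in NP and 1.53 to 4.97 TPM in LT (contrast 2.61, adjusted P = 0.00194). PCDH20, a protocadherin, was even across MT at 22.8, 22.5 and 23.1 TPM and between 2.19 and 9.12 TPM elsewhere (contrast 1.94, adjusted P = 0.00856). CDH7, a cadherin, was at 9.71, 7.20 and 7.10 TPM in MT, close above LT1 at 6.37 TPM, and at 0.189 to 0.860 TPM in NP (contrast 1.73, adjusted P = 0.00864). The 7 markers of Schwann cells and nerve summed to 24.3 to 30.6 TPM in MT against 22.9 to 33.1 TPM in NP and 13.3 to 26.5 TPM in LT. The calls of these 4 genes held with each animal left out. CDH10, another cadherin, peaked at 36.3 to 54.4 TPM (contrast 1.14, adjusted P = 0.0223), lost without MT2 or MT3. In the list of claudins, cadherins and desmosome genes CDH7, CDH10 and MARVELD2 peaked out of 37 tested, or 8.11% against 2.56% of all genes. The median contrast of the list was 0.035, but after median-ratio scaling and with edgeR 1 of the list peaked.

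Among matrix genes the small proteoglycans FMOD and SPOCK2 peaked and LUM dipped, out of 15 tested, or 13.3% and 6.67% against 2.56% and 2.42% of all genes, with a median contrast of 0.03. FMOD, fibromodulin, which binds collagen fibrils, was at 377, 271 and 261 TPM in NP, at 742, 677 and 606 TPM in MT and at 348, 337, 484 and 310 TPM in LT (contrast 1.03, standard error 0.16, adjusted P = 0.00524). LUM, lumican, a relative of FMOD on the same fibrils, was at 174, 189 and 245 TPM in NP, at 134, 134 and 111 TPM in MT and at 213, 179, 289 and 290 TPM in LT (contrast -0.79, adjusted P = 0.0215). FMOD exceeded LUM in each animal, and the ranges of the 2 genes were 606 to 742 TPM and 111 to 134 TPM in MT. SPOCK2, testican-2, was at 92.8, 154 and 119 TPM in MT, with NP1 at 88.3 TPM just below, and at 5.29 to 10.7 TPM in LT (contrast 2.45, adjusted P = 0.00321). Its difference from NP was 1.21 (adjusted P = 0.0607). CSPG5, a membrane-bound chondroitin sulfate proteoglycan, was at 12.4, 15.3 and 26.1 TPM in MT against 3.44 to 4.73 TPM in NP and 0.867 to 1.86 TPM in LT (contrast 2.39, adjusted P = 0.000875). LECT1, chondromodulin, an inhibitor of vessel growth in cartilage, was at 12.3, 17.8 and 8.76 TPM in MT, 0.157 to 0.432 TPM in NP and 0.872 to 5.78 TPM in LT (contrast 2.72, adjusted P = 0.00289). LUM lost its call without MT2 or MT3, and the other 4 calls held with each animal left out.

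Among enzymes of the matrix, 1 of 26 tested genes of collagen processing dipped, or 3.85%, and 2 of 35 proteases and inhibitors, or 5.71%, against 2.42% of all genes, and neither list held a peak. LOXL2, which crosslinks collagen, was at 108, 79.8 and 103 TPM in NP, at 59.9, 43.9 and 43.1 TPM in MT and at 113, 91.6, 95.6 and 85.8 TPM in LT (contrast -0.97, adjusted P = 0.00358), and it was the single dip among the genes of collagen processing. MMP14, a membrane-bound collagenase, was at 185, 186 and 184 TPM in MT, below 193 to 249 TPM in LT and 283 to 370 TPM in NP (contrast -0.55, adjusted P = 0.0183), lost without MT1, MT2 or MT3. MMP19, lost without any 1 of 4 animals, was the other dip among the proteases and inhibitors. Of these 35 genes 3 were called lower and 2 higher, against 3.61% and 4.6% of all genes. The dips in this list ranged from 0 (without MT2) to 4 with 1 animal left out. VCAN, versican, which fills soft matrix, was at 22.8 to 28.8 TPM in MT against 42.3 to 101 TPM in NP and 31.2 to 52.5 TPM in LT (contrast -0.96, adjusted P = 0.0426), lost when any 1 of 7 animals was left out, on the square root scale, after median-ratio scaling and with edgeR. TGFBI, a matrix protein induced by TGF-beta, dipped to 48.0 to 51.9 TPM from 91.8 to 203 TPM in NP and 77.7 to 107 TPM in LT (contrast -1.16, adjusted P = 0.011), lost without MT2 or MT3. COL1A1 did not pass, at 6840, 3672 and 3495 TPM in MT (contrast -0.16, adjusted P = 0.721). Of 25 collagen chains 2 peaked, or 8% against 2.56% of all genes, and between 1 and 4 with 1 animal left out. These were COL13A1 and COL25A1, both membrane-bound collagens, at 20.7 to 25.4 TPM and 2.83 to 5.13 TPM in MT, and COL13A1 lost the call without any 1 of 5 animals. ITGA10, a collagen receptor, peaked at 6.69, 7.12 and 7.23 TPM against 0.885 to 4.36 TPM elsewhere (contrast 1.36, adjusted P = 0.00435).

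Of 32 tested genes of mucus secretion, 8 were called higher, against 4.6% of all genes, and 2 peaked, or 6.25% against 2.56%. The median contrast was 0.57, with a median difference of 1.33 from NP and of -0.16 from LT, and with 1 animal left out between 1 and 4 peaked. KIAA1324, an estrogen-induced membrane protein of secretory cells, was at 0.200, 2.36 and 0.869 TPM in NP, at 27.8, 76.1 and 49.8 TPM in MT and at 12.4, 7.34, 2.11 and 2.02 TPM in LT (contrast 3.85, standard error 0.53, adjusted P = 0.00318). BCAS1 was at 13.2, 67.3 and 55.6 TPM in NP, at 261, 347 and 325 TPM in MT and at 191, 199, 170 and 169 TPM in LT (contrast 1.90, adjusted P = 0.0196), and its difference from LT was not called (adjusted P = 0.208). The peak call of BCAS1 was lost without MT2 or MT3. CLCA1, a protein of goblet cells, shows the other shape, with 297, 85.4 and 230 TPM in MT, overlapping 128 to 338 TPM in LT, and 0.300 to 2.91 TPM in NP, so it was called (contrast 3.01, adjusted P = 0.00509) without peaking, and on the square root scale it was not called. The 8 goblet cell markers summed to 2148 to 5447 TPM in MT, between 132 to 392 TPM in NP and 7473 to 9599 TPM in LT. Of the 6 tested 3 were called higher, against 4.6% of all genes. FER1L6, a ferlin, was at 69.2, 99.8 and 44.8 TPM in MT and 3.20 to 33.7 TPM elsewhere (contrast 2.82, adjusted P = 0.0188), lost without any 1 of the MT animals. ERN1, the sensor IRE1 of unfolded proteins, was at 9.52, 15.3 and 11.8 TPM in NP, at 29.7, 23.6 and 25.9 TPM in MT and at 12.9, 12.1, 14.9 and 13.2 TPM in LT (contrast 1.01, adjusted P = 0.00314). CREB3L2, a factor released from the endoplasmic reticulum to widen secretory capacity, was at 62.7, 68.0 and 66.6 TPM in MT against 33.7 to 43.6 TPM elsewhere (contrast 0.72, adjusted P = 0.00289). Of 49 genes of protein folding in this compartment these 2 peaked and ASNS dipped, or 4.08% and 2.04% against 2.56% and 2.42% of all genes, with a median contrast of 0.06. ASNS lost its call without any 1 of 7 animals, after median-ratio scaling and with edgeR.

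**Figure D4:**
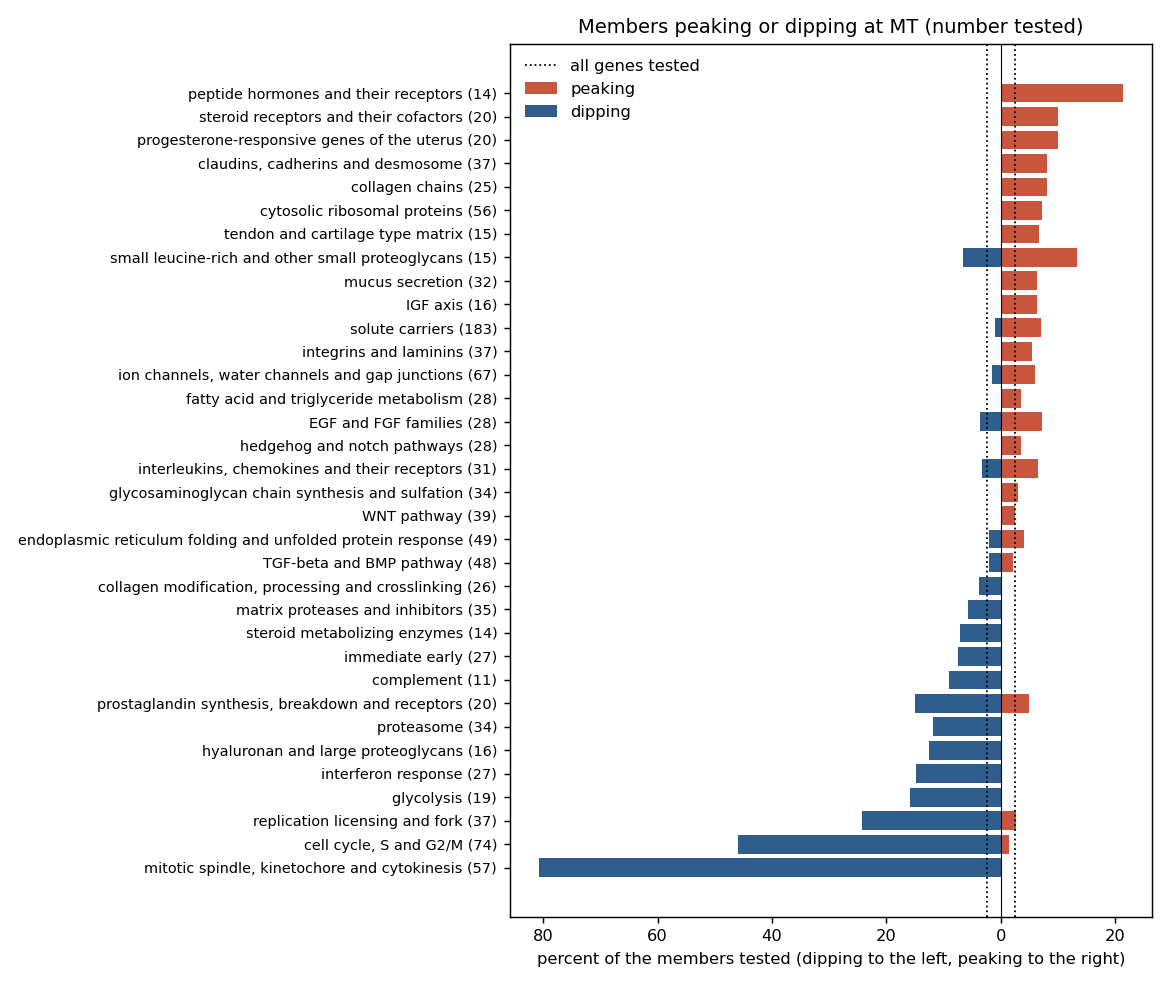
Percent of the tested members of each list (number in parentheses) that peaked (red, to the right) or dipped (blue, to the left) at MT, with dotted lines at the 2.56% and 2.42% of all genes tested. The mitosis list reaches 46 of 57 dipping, the longest bar, and peptide hormones and their receptors 3 of 14 peaking.

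Of 56 tested genes of cytosolic ribosomal proteins 53 had a contrast above 0, with a median of 0.27. Of the 56, 8 were called higher, against 4.6% of all genes, and 4 peaked, or 7.14% against 2.56%. RPS15A was at 1510, 1739 and 1864 TPM in NP, at 2364, 2244 and 2712 TPM in MT and at 1805, 1728, 1641 and 1527 TPM in LT (contrast 0.53, adjusted P = 0.0139), lost without MT3. RPL35A, RPL26 and RPL10 peaked with contrasts of 0.48, 0.44 and 0.31. RPL35A lost the call without MT2 or MT3, RPL26 without MT3, and RPL10 the call without any 1 of 9 animals and after median-ratio scaling. Ribosomal protein genes have many near-identical copies in the genome, so their counts are uncertain. RPLP0 was at 1490, 1347 and 1510 TPM in MT and had a contrast of -0.02 (adjusted P = 0.931). With 1 animal left out the peaks in this list ranged from 0 to 8. Of 34 proteasome genes 32 had a contrast below 0, with a median of -0.21. Of the 34, 7 were called lower, against 3.61% of all genes, and 4 dipped, or 11.8% against 2.42%. After median-ratio scaling 0 of the list dipped, with the replicate number as a block 0 and with edgeR on the counts 2. With 1 animal left out the dips ranged from 0 (without MT2) to 8 (without NP1), and 2 were left without MT3. PSMB1 was at 141, 137 and 141 TPM in MT against 154 to 161 TPM in NP and 175 to 180 TPM in LT, a contrast of -0.26 (adjusted P = 0.0221) that was lost without any 1 of the MT animals.

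Of 28 tested genes of the EGF and FGF families 2 peaked and 1 dipped, or 7.14% and 3.57% against 2.56% and 2.42% of all genes, and with 1 animal left out between 0 and 4 peaked. WNT2B was at 8.18, 7.88 and 7.01 TPM in NP, at 14.6, 13.3 and 14.7 TPM in MT and at 10.8, 10.1, 10.1 and 11.2 TPM in LT (contrast 0.60, adjusted P = 0.00456). It alone peaked of 39 tested WNT pathway genes, or 2.56%, the same share as over all genes. FGF10, a stromal growth factor for epithelia, was at 6.95, 11.7 and 7.24 TPM in MT against 2.19 to 5.33 TPM elsewhere, and FGF18 dipped to 0.387 to 0.499 TPM, on 4 to 7 reads. ERBB2, a receptor of the EGF family, was at 76.4, 89.4 and 72.2 TPM in MT and 45.7 to 61.1 TPM elsewhere (contrast 0.54, adjusted P = 0.0098). GDF10, a relative of the bone morphogenetic proteins, was at 7.98, 21.8 and 14.5 TPM in MT and 3.55 to 7.27 TPM elsewhere (contrast 1.29, adjusted P = 0.0147). HEYL, a target of Notch in vessel walls, was at 86.1, 93.1 and 71.0 TPM in MT against 8.04 to 49.6 TPM in NP and 21.0 to 28.9 TPM in LT (contrast 1.74, adjusted P = 0.0323). PAPPA2, a protease that frees insulin-like growth factors, was at 40.2, 57.1 and 51.3 TPM in MT, 13.4 to 27.7 TPM in NP and 0.456 to 13.1 TPM in LT (contrast 2.33, adjusted P = 0.0483). The call of WNT2B held with each animal left out. FGF10, GDF10 and ERBB2 lost theirs without MT2, the first 2 of them also without MT3, FGF18 without MT2, HEYL without any 1 of 6 animals or without a filter, and PAPPA2 without any 1 of 8. PAPPA2 was also not called with edgeR or DESeq2 on the counts, without a filter, without the trend or with a pseudocount of 0.25 TPM, and its difference from NP was 1.16 (adjusted P = 0.283). Among immediate early genes JUNB dipped to 33.3 to 42.6 TPM from 58.0 to 88.8 TPM elsewhere (contrast -0.88, adjusted P = 0.00509), and so did EGR1 to 21.9 to 28.7 TPM from 69.3 to 88.1 TPM in NP and 30.6 to 71.4 TPM in LT (contrast -1.16, adjusted P = 0.0146, lost without MT2 or MT3). Of 27 such genes tested, 2 called genes were higher in MT and 3 lower, against 4.6% and 3.61% of all genes.

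Other named peaks belong to none of the lists above. CYB5A, cytochrome b5, an electron donor in lipid and steroid metabolism, was at 486, 521 and 389 TPM in NP, at 1958, 1771 and 1801 TPM in MT and at 1323, 1385, 1243 and 1207 TPM in LT (contrast 1.25, standard error 0.10, adjusted P = 0.000424). CPD, a carboxypeptidase of the Golgi, was at 332, 322 and 341 TPM in MT against 48.4 to 95.3 TPM in NP and 155 to 262 TPM in LT (contrast 1.41, adjusted P = 0.00564). RASD1, a small GTPase induced by glucocorticoids, was at 323, 354 and 397 TPM in MT, 10.5 to 48.8 TPM in NP and 67.0 to 239 TPM in LT (contrast 2.68, adjusted P = 0.00702). For these 3 genes LT was also higher than NP, with adjusted P-values of 4.24e-05, 0.000987 and 0.0022. TMEM200A was at 62.0, 93.1 and 79.3 TPM in MT and 12.5 to 29.9 TPM elsewhere (contrast 1.96, adjusted P = 0.00289). MGAM, maltase-glucoamylase, was at 30.0, 39.6 and 33.5 TPM in MT, 5.42 to 15 TPM in NP and 0.316 to 2.95 TPM in LT (contrast 2.89, adjusted P = 0.00301). All 5 calls held with each animal left out.

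Of 67 tested genes of ion channels, water channels and gap junctions 4 peaked and AQP3 dipped, or 5.97% and 1.49% against 2.56% and 2.42% of all genes, and with 1 animal left out between 1 and 5 peaked. TRPM4, a cation channel opened by calcium, was at 32.6, 30.2 and 29.0 TPM in NP, at 59.4, 66.5 and 61.8 TPM in MT and at 44.6, 45.3, 32.3 and 36.2 TPM in LT (contrast 0.83, standard error 0.11, adjusted P = 0.00295), a call that held with each animal left out. KCNT1, CACNG7 and KCNC4 peaked at low levels, with means of at most 13.8 TPM in MT, and each lost the call without MT3 and without at least 1 more animal, KCNT1 also with edgeR. Genes of such low level can enter the test through MT alone. HS3ST5, which adds a sulfate to heparan sulfate, was at 15.8, 17.5 and 10.8 TPM in MT against 3.24 to 5.42 TPM in NP and 0.886 to 4.37 TPM in LT (contrast 1.98, adjusted P = 0.00506), held with each animal left out. SNAI2, a transcription factor of mesenchymal cells, was at 277, 313 and 375 TPM in MT against 102 to 142 TPM in NP and 103 to 233 TPM in LT (contrast 1.16, adjusted P = 0.0158, lost without MT2 or MT3). Among the abundant dips A9QUC5_CAVPO was at 855, 477 and 284 TPM in NP, at 181, 65.8 and 93.8 TPM in MT and at 344 to 360 TPM in LT (contrast -1.98, adjusted P = 0.00832). C15orf48 fell to 138, 72.6 and 76.3 TPM from 166 to 339 TPM in NP and 248 to 312 TPM in LT (contrast -1.48, adjusted P = 0.00657). Both calls held with each animal left out. STMN1, stathmin, which takes microtubules apart in dividing cells, was at 68.5, 55.7 and 77.4 TPM in MT against 120 to 312 TPM in NP and 125 to 237 TPM in LT (contrast -1.52, adjusted P = 0.0132), lost without MT2.

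A gene was called switched at 3 TPM if all MT animals were on one side of this threshold and all others on the other side. By this rule 20 genes were on in MT alone, 16 of them named, and 50 were off in MT alone, 38 of them named. Besides LSAMP, SLC26A7 and PTGDR, the named genes on in MT alone included ADCY1, a brain form of adenylyl cyclase, at 3.34, 7.22 and 9.77 TPM, CLSTN2, a synaptic cadherin relative, at 4.63, 6.72 and 3.57 TPM, XKR4 at 4.44, 3.48 and 6.09 TPM and FAM43B at 6.74, 7.61 and 5.59 TPM. ADCY1 lost its peak call without MT2 or MT3 and CLSTN2 without MT2. Q80XX6_CAVPO was at 8.45, 11.8 and 8.90 TPM and at 2.17 TPM or less elsewhere. Most lay near the threshold, with a median MT mean of 4.82 TPM, and these genes passed the filter through MT alone. Of the 50 genes off in MT alone 19 belong to the cell cycle lists, among them KIFC1, DLGAP5, NCAPG and NDC80. Those lists held 133 of the 12645 genes tested. NCAPG, a condensin subunit, was at 4.91, 7.27 and 4.59 TPM in NP, at 2.07, 0.457 and 1.59 TPM in MT and at 13.2, 10.2, 8.85 and 7.08 TPM in LT. CA14, a carbonic anhydrase, was off in MT at 0.964, 2.5 and 1.01 TPM, near 3.54 to 4.03 TPM in NP, and reached 31.4 and 28.4 TPM in LT3 and LT4, and its call as a dip was lost without any 1 of 9 animals. Without MT1 the rule found 34 and 89 genes.

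**Figure D5:**
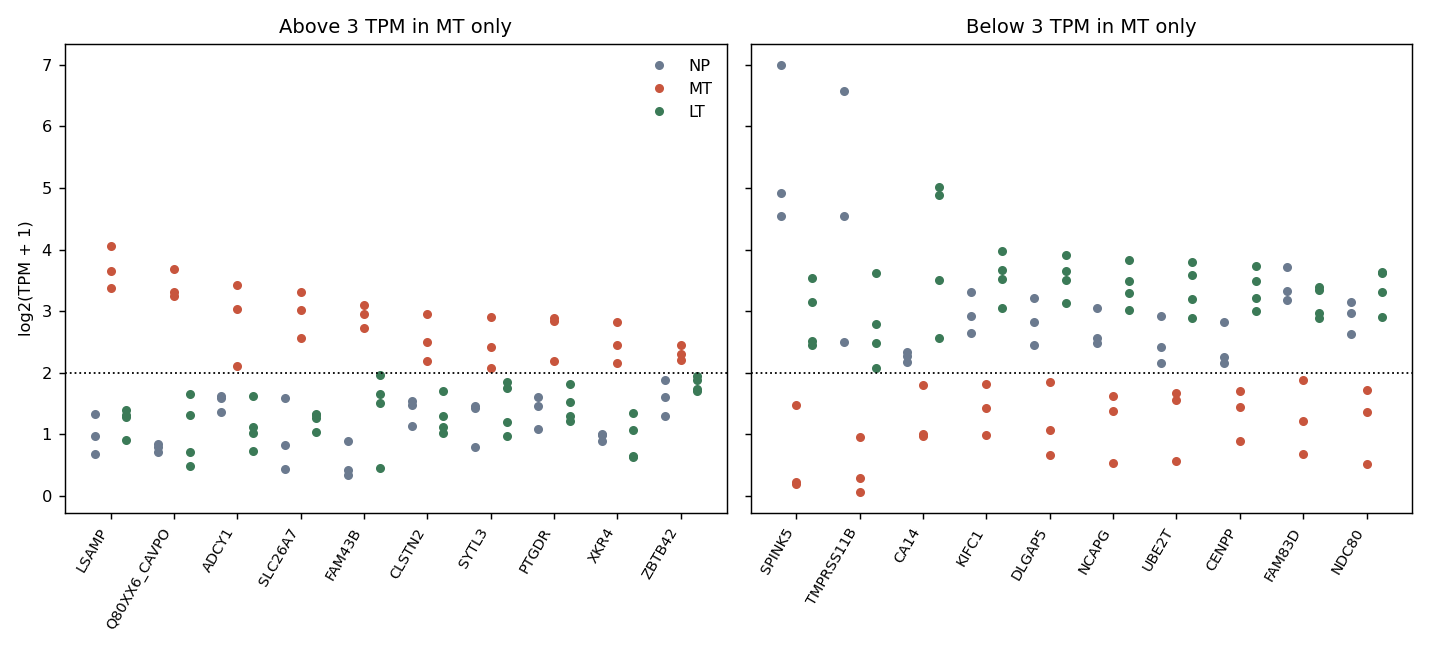
log2(TPM + 1) in each animal for the 10 named genes of highest TPM that were above (left) or below (right) 3 TPM in MT alone, with the dotted line at 3 TPM. MT points (red) lie above the line on the left and below it on the right, and SPINK5 and TMPRSS11B show NP1 far above the other animals.

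The lists of the circadian clock (20 tested), elastic fibre (16), heat shock (23), cholesterol synthesis (24), ribosome assembly (55), respiratory chain (59), keratins (7) and HOX genes (17) held no peaking and no dipping gene, against 2.56% and 2.42% of all genes. In cholesterol synthesis 21 of the 24 contrasts were below 0, with a median of -0.38, 1 gene was called lower, and up to 3 dipped with 1 animal left out. The median contrast of ribosome assembly was 0.003.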

How the data were processed

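RNA of the vaginal portion of the cervix of 10 guinea pigs was sequenced strand-specifically after poly A selection, as single reads of 75 bp. Per the labels, CASAVA 1.8.2, TopHat2 and HTSeq 0.5.4p1 were used. The authors deposited 1 table of 25028 Ensembl genes (genome cavPor3) with the read count of each gene and animal and the TPM made from it. Both were used as deposited. TPM values of an animal share 1 total, so the level of a gene also moves with all others.

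limma (trend, 3.58.1, R 4.3.3) was fitted to log2(TPM + 1) of the 10 animals, with stage as the only term, because the study also analysed TPM. MT was set against the mean of the NP and LT means for 12645 genes with a stage mean of at least 3 TPM. The 4200 assignments of the animals to the stages gave an exact permutation test of the contrast on square-root TPM, with 0.000238 as the smallest P it allows. Of the genes named by rule, all 68 peaking and 58 of 65 dipping genes were under 0.05, and the highest exact P was 0.106. These genes were chosen from the same values, with each MT animal outside all others. That choice largely fixes a small exact P, so this test gives them no separate support. All tests were two-sided. The labels call the samples biological replicates. edgeR 4.0.16 (quasi-likelihood) and DESeq2 1.42.0 on the counts, other pseudocounts, filters, scalings and weights, a replicate block and leaving out each animal were the alternatives. Fits were also run on simulated counts in which NP and LT had the same mean for each gene. In these data LT and NP differ for many genes, so that run does not match them, and its outcome is not used here.

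The members and the gene lists were chosen with earlier results of these data known, and list counts are descriptions. Genes named are the 15 of largest size in each direction, the 10 most abundant with a size of at least 0.5, up to 4 members per list in each direction, the 10 of highest TPM on each side of the 3 TPM rule, and 9 further genes (PGR, ESR1, FMOD, SPOCK2, MKI67, FOXM1, SPC24, CLCA1 and TNFSF11). Not every gene so chosen is printed. Other solute carriers, list members that did not pass and unnamed genes were named after their values were seen. Names that several rows share were not used. No genome or sequence was used here, so positions and promoters were not analysed. One gene is not reported here.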

Additional observations from a re-analysis of the deposited data

Results flagged for a closer look

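Among the 4 LT animals, 1 value stood farther from the rest than Dixon's 95% limit allows for 5 of the 155 genes examined, and chance alone passes this limit in about 1 of 20 groups. LT3 had 33.7 TPM of CREB3L2, the lowest of LT. LT4 had 22.2 TPM of CENPI, the highest of LT, 143 TPM of BST2, the lowest, and 6.53 TPM of PTGES, the highest. LT2 had 175 TPM of PSMB1, the lowest. For CREB3L2, BST2, PTGES and PSMB1 this animal was on the same side of every MT animal as the rest of LT, and CENPI did not dip.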

How the results depend on the processing

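The numbers of genes higher, lower, peaking and dipping, 582, 457, 324 and 306, stayed within 1.5 times on the square root scale and under the other pseudocounts, filters, scalings, weights, without the trend and with edgeR. DESeq2 on the counts called 1255 genes higher and 1072 lower, and 480 dipped. With the replicate number as a block they were 237, 215, 167 and 171. The numbers do not pair the animals by the labels, and deviations of animals with the same number correlated between -0.287 and 0.254. With 1 animal left out, higher genes ranged from 199 (without MT3) to 787 (without NP1), lower genes from 156 (without MT2) to 824 (without NP1), peaking genes from 147 (without MT2) to 432 (without NP1) and dipping genes from 141 (without MT2) to 488 (without NP1). Fits without 1 animal also test fewer samples. The 20 genes above 3 TPM in MT alone became 13 at a threshold of 2 TPM and 20 to 34 without 1 animal, and the 50 genes below it became 29 at 2 TPM, 33 at 5 TPM and 50 to 89 without 1 animal, with 34 and 89 both without MT1. Each named gene that was called kept its direction under every alternative run. For peaking and dipping genes this follows largely from their rule, as each MT animal lies beyond all others. Of those not called, ESR1, COL1A1, RPLP0 and the mitotic phosphatase gene CDC25B changed sign around contrasts near 0 in at least 1 alternative, ESR1 between -0.23 and 0.12 with 1 animal left out. A call was lost in 372 and gained in 24 of their comparisons with an alternative, and unchanged in 3162. The cause of these changes was not tested. Genes with few MT reads, such as SPC24 and FGF18, are limited by depth.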
